A study of Macaca fascicularis with 15 samples.

Results

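The genes described are those of voltage-gated and potassium ion channels in the eye of Macaca fascicularis, the cynomolgus monkey. They were taken by name, as every gene whose symbol starts with KCN, SCN and a digit, CACN, HCN and a digit, or CLCN, leaving out KCNJ10, KCNJ13 and CACNA1F. The rule found 86 of the 12995 genes in the tables, namely 55 potassium channel genes, 13 calcium channel genes, 9 sodium channel genes, 2 HCN genes and 7 CLCN chloride channel or exchanger genes. RNA sequencing of tissue from wild-type animals gave 1 table per library for 4 central retina, 3 peripheral retina, 2 whole retina and 2 whole eye samples. All groups share the species and the wild-type genotype, no treatment is named, and the labels give no age, animal, date or eccentricity of the cut. Each sample came from 1 eye, kept in an RNA-preserving solution. The labels state biological replicates for whole eye and retina but do not say that the regional samples came from separate animals. The p-values given therefore reflect how much these libraries vary, and that variation may be technical.

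Voltage-gated channels open when the membrane potential changes. Sodium channels carry the rising phase of the action potential, potassium channels end it and set the resting potential, and calcium channels couple voltage to transmitter release. In retina, photoreceptors and most bipolar and horizontal cells signal by graded voltage changes, whereas ganglion cells fire action potentials along the axons of the optic nerve. HCN channels pass an inward current on hyperpolarization, and the CLCN family holds both chloride channels of the cell surface and chloride-proton exchangers of endosomes and lysosomes.

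The deposited values are normalized and their depth is unknown. Between 171 and 501 genes stood at 0 per library. Values of 1 gene are compared across libraries below, and levels of different genes are not compared, since it is not stated whether values were scaled by gene length. Marker genes of retinal cell types also differed between the regions. The 6 ganglion cell markers in the tables (of 10 listed) were all higher in central retina, with a summed level of 1967 to 3802 in central, 353 to 647 in peripheral and 481 to 706 in whole retina libraries, and none of them was at 0 in any library. Rod markers summed to 10780 to 19012 in central and 17585 to 25952 in peripheral libraries, and 4 of 8 were lower in central retina. Both whole retina libraries held markers of other tissue: 4 smooth muscle markers of 6 summed to 1222 and 1417 in whole retina, 592 and 1226 in whole eye, and no more than 12.2 in any regional library. Pigment epithelium markers summed to 2287 and 2457 in whole retina and to no more than 963 in a regional library. Whole retina thus carried more of both marker sets than either region did. In bulk tissue, fewer cells of a type and less RNA per cell cannot be told apart.

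Central retina held the higher level of many channel genes. Of the 72 members with a mean of at least 1 in some group, 29 (40.3%) were higher in central retina by limma at an adjusted p under 0.05, where 12.5% of all 11933 tested genes were. Another 3 (4.17%), KCNE4 and KCNIP2 among them, were lower, against 8.76% of all genes. The median log2 difference was 0.24 over the 72 members and -0.01 over all genes. Each difference is that of mean log2(value + 1), central minus peripheral. In all 29 the 4 central libraries lay above the 3 peripheral ones, as they did for 32 of the 72 members (44.4%) and for 19.0% of all genes. The reverse held for the 3 lower genes (4.17%) and for 15.6% of all genes. In 16 of the 29 the mean was at least 2 times higher, and in 5 at least 3 times. For 19 of the 29 the call held whichever of the 11 libraries was left out; without peripheral retina replicate 2, or without replicate 3, 20 members were called higher. Peripheral retina replicate 1 held the highest of the 3 peripheral values in 21 of the 29 genes, against 37.0% of all genes. Replicate 2 held it in 2 (30.2% of all genes) and replicate 3 in 6 (32.8% of all genes). The ganglion cell markers summed to 647, 353 and 604 in peripheral retina replicates 1 to 3, and their part in this order was not tested.

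**Figure D1:**
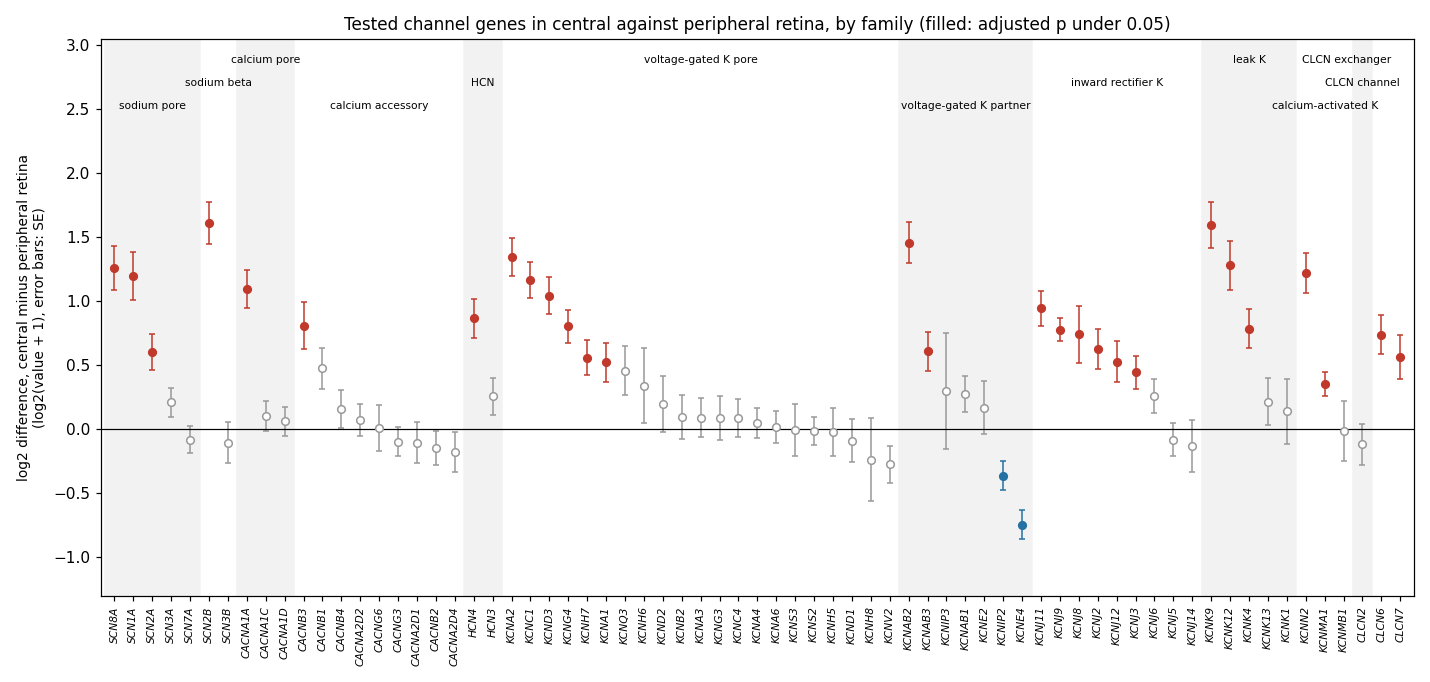
Fitted log2 difference between central and peripheral retina (y axis, points with standard error) for 69 of the 72 tested channel genes, grouped by family along the x axis. Filled red points are 28 genes higher in central retina, filled blue points 2 lower, KCNE4 and KCNIP2, and open points the genes that did not pass; SCN2B at 1.61 and KCNK9 at 1.59 are the highest of those plotted.

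Of the 8 tested sodium channel genes, 5 were higher in central retina and none lower (all genes: 12.5% and 8.76%), with a median log2 difference of 0.90. SCN2B, a beta subunit that modulates gating and takes part in cell adhesion, stood at 26.5, 28.2, 25.8 and 32.2 in the central libraries. In the peripheral libraries SCN2B stood at 11.2, 7.76 and 7.13, in whole retina at 7.23 and 5.27, and in whole eye at 7.14 and 9.20. The central libraries were therefore far above every other library, and the peripheral, whole retina and whole eye values overlapped. The mean was 3.24 times that of peripheral retina, a log2 difference of 1.61 (limma adjusted p = 0.000119). SCN3B, also a beta subunit, overlapped between the regions, from 11.7 to 14.2 centrally and from 12.6 to 14.7 peripherally, and did not pass (log2 -0.10).

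Among sodium channel pore subunits, the 3 that are the main ones of adult neurons were higher in central retina. SCN8A, the pore of the axon initial segment and nodes of Ranvier, stood at 12.9, 12.8, 12.5 and 14.7 in central and 6.69, 4.25 and 4.14 in peripheral libraries (log2 1.26, limma adjusted p = 0.00051). SCN1A had values of 9.46, 14.9, 11.1 and 10.9 against 6.14, 3.75 and 3.70 (log2 1.20, limma adjusted p = 0.0013). For both genes the peripheral library nearest to the central ones was replicate 1. SCN2A was at 3.64 to 5.31 in central and 2.18 to 2.83 in peripheral libraries (log2 0.60, limma adjusted p = 0.0109). SCN3A, known best from the developing brain, stood at 0.95 to 1.23 and 0.71 to 0.90, without overlap, and did not pass (log2 0.21). Its mean reached 1 only in central retina (1.10), so the filter let it in through that group. SCN7A, an atypical sodium-sensing channel, was at or below 0.17 in every regional library.

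**Figure D2:**
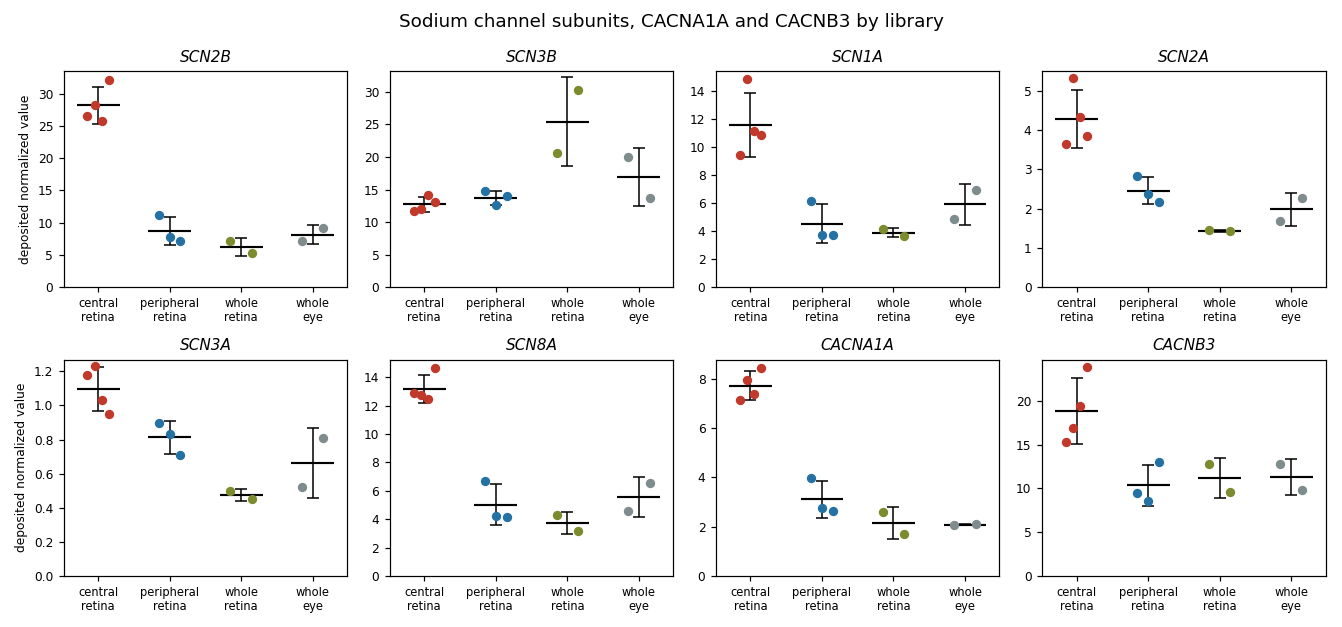
Deposited normalized value (y axis, from 0) of 6 sodium channel genes, CACNA1A and CACNB3 in each of the 11 libraries, by group along the x axis; points are libraries, thick bars group means and thin bars SD. In SCN2B the 4 central libraries lie between 25.8 and 32.2 and every other library at or below 11.2, while SCN3B shows no such step between the regions.

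Of the 12 tested calcium channel genes, 2 were higher in central retina and none lower, a share near that of all genes (12.5% higher), with a median log2 difference of 0.07. CACNA1A, the pore of the presynaptic P/Q-type channel, stood at 7.13, 7.96, 7.39 and 8.44 in central and 3.98, 2.75 and 2.62 in peripheral libraries. Its groups did not overlap, and the mean was 2.48 times higher (log2 1.10, limma adjusted p = 0.000452). The L-type pores CACNA1C and CACNA1D showed overlapping libraries, with means of 1.48 ± 0.253 (SD, n = 4) against 1.30 ± 0.205 (n = 3) and ranges of 2.11 to 2.43 against 2.04 to 2.21. Of the 9 accessory subunits, CACNB3 alone was called, at 15.3 to 23.9 in central and 8.54 to 13.1 in peripheral libraries (log2 0.81, limma adjusted p = 0.011, and 0.0597 without peripheral retina replicate 2). CACNB1 fell just short with libraries that did not overlap, 4.87 to 6.72 against 3.45 to 4.16 (log2 0.48, limma adjusted p = 0.0536). It passed when central retina replicate 2 (adjusted p = 0.0484), whole retina replicate 1 (0.0231) or whole retina replicate 2 (0.0232) was left out. The other accessory subunits, CACNA2D1, CACNA2D2, CACNA2D4, CACNB2, CACNB4, CACNG3 and CACNG6, did not pass.

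Of the HCN genes, HCN4 was higher in central retina. Its values were 6.64, 5.67, 7.35 and 7.55 in central, 3.82, 2.46 and 3.63 in peripheral, 1.27 and 0.84 in whole retina and 1.09 and 0.80 in whole eye libraries. The regions thus did not overlap with each other, nor with either whole tissue, and central exceeded peripheral retina by 2.06 times (log2 0.87, limma adjusted p = 0.00256). HCN3 had 5.56 to 6.31 in central and 4.70 to 5.07 in peripheral libraries, also without overlap, and did not pass (log2 0.26).

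Voltage-gated potassium channel pores split, with 6 of 22 tested higher in central retina and 1 lower (all genes: 12.5% and 8.76%). KCNA2, a delayed rectifier found along axons, stood at 33.3, 36.3, 36.7 and 37.2 in central and 18.0, 11.4 and 12.01 in peripheral libraries (log2 1.35, limma adjusted p = 0.000171). KCNAB2, the cytoplasmic beta subunit that binds such pores, had 63.2, 64.1, 67.4 and 76.4 against 27.8, 20.9 and 23.6 (log2 1.46, limma adjusted p = 0.00016). The KCNAB2 mean was 2.81 times higher, and for both genes every whole retina and whole eye library lay below every central one. KCNC1, whose fast channels let neurons fire at high rates, was at 32.0 to 47.4 in central and 13.9 to 18.0 in peripheral libraries (log2 1.17, limma adjusted p = 0.00025). KCND3, a pore of the transient A-type current, was at 18.6 to 23.6 and 8.12 to 12.1 (log2 1.04, limma adjusted p = 0.000577).

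The remaining called pores were KCNG4, KCNH7 and KCNA1. KCNG4, a modulatory subunit with no channel of its own, had 11.7 to 13.5 against 5.94 to 8.39 (log2 0.80, limma adjusted p = 0.00157). KCNH7, of the ether-a-go-go-related family, had 2.11 to 2.87 against 1.13 to 1.82 (log2 0.56, limma adjusted p = 0.0154). That call was lost without peripheral retina replicate 2 (0.0805) or replicate 3 (0.0593). KCNA1, a close relative of KCNA2, had 3.53 to 4.13 against 1.89 to 3.32 (log2 0.52, limma adjusted p = 0.0329). Its call was lost without central retina replicate 2 (0.0569), 3 (0.0745) or 4 (0.075), and without peripheral retina replicate 2 (0.154) or 3 (0.101). Many other pores showed little difference: KCNA3, KCNA4, KCNA6, KCNB2, KCNC4, KCND1, KCNG3, KCNH5, KCNS2 and KCNS3 had overlapping libraries and log2 differences between -0.09 and 0.09. KCNQ3, a subunit of the M-current that restrains repetitive firing, was at 4.13 to 8.15 and 3.93 to 4.89 (log2 0.46, limma adjusted p = 0.113, and 0.0193 without central retina replicate 2).

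**Figure D3:**
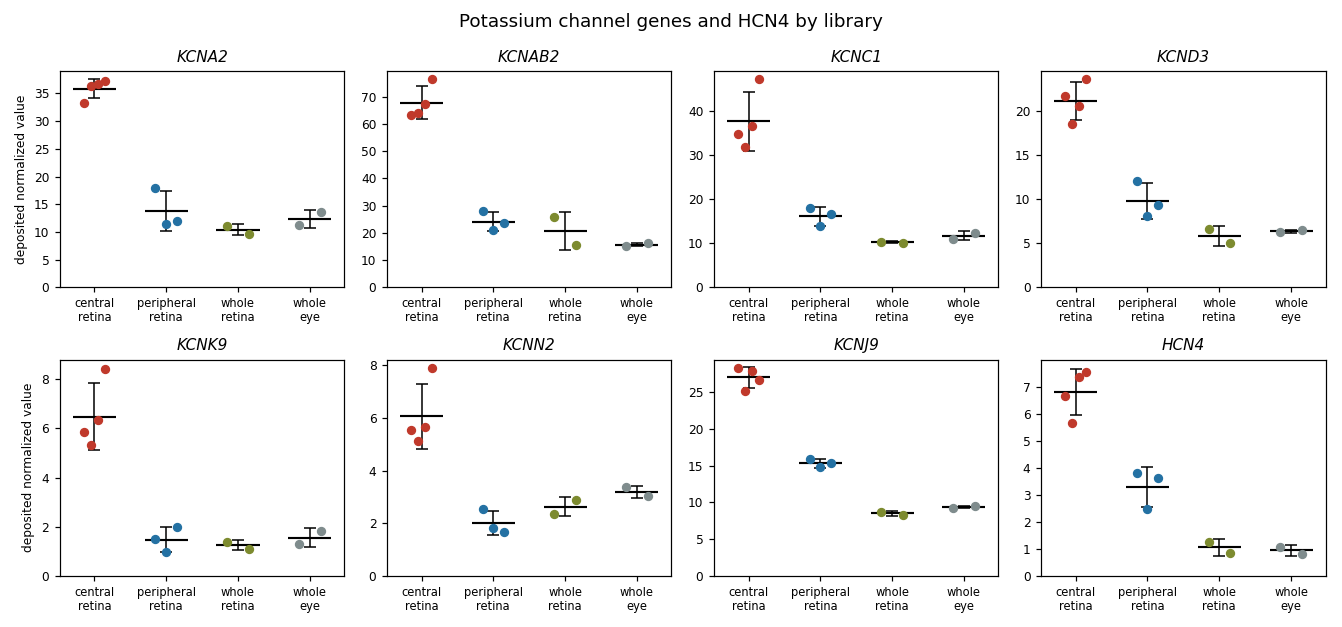
Deposited normalized value (y axis, from 0) of 7 potassium channel genes and HCN4 in each library, by group; points are libraries, thick bars group means and thin bars SD. In each panel the 4 central libraries lie above all others, and in KCNC1, KCND3, KCNJ9 and HCN4 the peripheral libraries also lie above the whole retina and whole eye libraries.

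Partner subunits of the voltage-gated pores moved in both directions, with 2 of 7 higher in central retina and 2 lower (all genes: 12.5% and 8.76%). KCNAB3 joined KCNAB2 at 16.7 to 26.1 against 12.5 to 15.6 (log2 0.61, limma adjusted p = 0.0173), a call lost without peripheral retina replicate 2 (0.0546) or 3 (0.0666). KCNAB1, the third beta subunit, overlapped at 9.20 to 13.4 and 7.55 to 9.82. KCNE4, a single-pass subunit that dampens voltage-gated potassium currents, was lower in central retina, at 0.81, 1.17, 1.12 and 1.09 against 2.72, 2.26 and 2.31. That is a log2 difference of -0.75 (limma adjusted p = 0.00113), the only lower call that held with each library left out. Pigment epithelium markers, summed over 5 of 6, ran the same way at 243 to 349 in central and 657 to 963 in peripheral libraries. Among them RPE65 did not pass (means of 5.64 against 6.89, log2 -0.255). Of the Müller glia markers 5 of 6 were also lower in central retina, and RLBP1 stands in both lists. The part of either marker set in the KCNE4 difference was not tested. KCNIP3 and KCNE2 had overlapping libraries.

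Potassium channels that set the resting potential were higher in central retina in 9 of 14 tested genes, 6 of 9 inward rectifiers and 3 of 5 leak channels. None was lower (all genes: 12.5% higher and 8.76% lower). KCNJ9, a subunit of G protein-gated inward rectifiers, stood at 28.3, 25.2, 27.9 and 26.7 in central, 16.0, 14.8 and 15.3 in peripheral, 8.77 and 8.32 in whole retina and 9.25 and 9.52 in whole eye libraries (central minus peripheral log2 0.78, limma adjusted p = 0.000209). The central, peripheral and whole-tissue libraries did not overlap, and whole retina and whole eye lay close together. KCNJ3, another G protein-gated subunit, was at 7.62 to 8.29 against 5.18 to 6.34 (log2 0.45, limma adjusted p = 0.0335). KCNJ11, the pore of neuronal ATP-sensitive channels, was at 4.65 to 5.95 against 1.88 to 2.56 (log2 0.94, limma adjusted p = 0.00069). The strong rectifiers KCNJ2 (13.3 to 18.2 against 7.83 to 10.3, log2 0.63, limma adjusted p = 0.0181) and KCNJ12 (2.83 to 4.25 against 1.95 to 2.23, log2 0.53, limma adjusted p = 0.0367) were also called. KCNJ8, the ATP-sensitive pore of vascular smooth muscle and pericytes, was at 1.56 to 2.77 against 0.72 to 1.34 (log2 0.74, limma adjusted p = 0.0359). Smooth muscle markers overlapped between the regions, at 8.26 to 12.2 and 7.47 to 10.4, and so did vascular markers, at 25.3 to 36.5 and 23.4 to 37.8. The part of such cells in the regional KCNJ8 values was not tested. KCNJ5, KCNJ6 and KCNJ14 did not pass.

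Of the 6 inward rectifier calls, 4 were lost when 1 library was left out. KCNJ2 was lost without peripheral retina replicate 3 (limma adjusted p = 0.0706). KCNJ3 was lost when central retina replicate 1 (0.073), 3 (0.0622) or 4 (0.0791) was left out, as when peripheral retina replicate 2 (0.124) or 3 (0.101) was. The same held of KCNJ8 for central retina replicates 2 (0.0543), 3 (0.09) and 4 (0.0926) and peripheral retina replicates 2 (0.138) and 3 (0.0924). KCNJ12 was lost on leaving out central retina replicate 3 (0.0964), central retina replicate 4 (0.0999) or any of peripheral retina replicates 1 (0.116), 2 (0.0947) and 3 (0.0744). The names KCNJ11, KCNJ12, KCNJ14 and KCNJ15 begin with the whole name KCNJ1, and KCNK12 and KCNK13 with KCNK1. KCNJ1 ran from 0.15 to 0.97 over the 11 libraries, and KCNK1 from 14.5 to 35.9. Levels cannot show whether such entries were mixed up, and this was not tested.

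The leak channels of the KCNK genes hold the membrane near the potassium potential. KCNK9, an acid-sensitive leak channel, stood at 5.84, 5.31, 6.33 and 8.43 in central and 1.49, 0.97 and 1.99 in peripheral libraries. The groups lay well apart, with a mean 4.37 times higher in central retina (log2 1.59, limma adjusted p = 0.000181). KCNK12, which gives little current by itself, was at 6.29 ± 1.66 (SD, n = 4) against 1.96 ± 0.418 (n = 3, log2 1.28, limma adjusted p = 0.000962), and KCNK4, which responds to membrane stretch, at 2.52 to 4.13 against 1.32 to 2.02 (log2 0.78, limma adjusted p = 0.00444). KCNK1 overlapped at 21.8 to 35.9 and 21.8 to 28.9, as did KCNK13.

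Calcium-activated potassium channels couple calcium entry to repolarization, and 2 of 3 tested were higher in central retina (all genes: 12.5%). KCNN2, of the small-conductance class, was at 5.54, 5.12, 5.64 and 7.89 against 2.54, 1.82 and 1.68, with a mean 3.00 times higher (log2 1.22, limma adjusted p = 0.000336). KCNMA1, the pore of the large-conductance channel, showed the smallest called difference, at 44.1 to 47.1 against 33.0 to 38.2 (log2 0.35, limma adjusted p = 0.0212). The KCNMA1 call was lost when central retina replicate 4 (0.0529) was left out, and likewise for peripheral retina replicates 2 (0.0686) and 3 (0.0859). KCNMB1, its smooth muscle beta subunit, was at or below 0.39 in every regional library.

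Both tested CLCN exchangers were higher in central retina (all genes: 12.5%), and neither of the tested CLCN surface channels was called. CLCN6, of late endosomes, stood at 23.0, 25.9, 31.1 and 31.2 against 16.7, 13.8 and 18.1 (log2 0.74, limma adjusted p = 0.00656). CLCN7, of lysosomes, was at 41.3 to 49.9 against 26.7 to 34.8 (log2 0.56, limma adjusted p = 0.0401). The CLCN7 call was lost without any 1 of the 7 regional libraries, with adjusted p = 0.0778, 0.0594, 0.0961 and 0.0584 without central retina replicates 1 to 4 and 0.0911, 0.165 and 0.0524 without peripheral retina replicates 1 to 3. CLCN2, a hyperpolarization-activated chloride channel, overlapped at 3.54 to 4.96 and 3.70 to 5.82.

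The channel genes KCNV2, CACNA2D4 and CACNB2, known from photoreceptors, overlapped between the regions. KCNV2, a modulatory subunit of photoreceptor potassium channels that is mutated in a cone dystrophy with supernormal rod responses, stood at 500.4, 351, 355 and 403 in central and 465, 493 and 487 in peripheral libraries. The groups overlapped through central retina replicate 1 (log2 -0.27, limma adjusted p = 0.192). KCNIP2, a calcium-binding partner of A-type pores, was at 28.1, 28.0, 25.8 and 25.3 against 33.5, 32.5 and 38.3 (log2 -0.36, limma adjusted p = 0.0424). The KCNIP2 call was lost when central retina replicate 1 (0.0623), 3 (0.101) or 4 (0.105) was left out, and for each of peripheral retina replicates 1 (0.0878), 2 (0.0825) and 3 (0.14).

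The photoreceptor calcium channel subunits CACNA2D4 and CACNB2, which serve release at the ribbon synapse, overlapped between the regions at 60.5 to 77.0 against 70.1 to 85.7 and at 26.7 to 31.4 against 28.0 to 36.2. The inward rectifier KCNJ14 ranged from 81.7 to 153 in central and from 100.6 to 134 in peripheral libraries. The summed rod markers stood at 19012, 10780, 15881 and 15317 in central and at 17585, 22652 and 25952 in peripheral libraries, an order that KCNJ14 shared among the central libraries but not among the peripheral ones, and KCNV2 in neither region. The part of rod content in these values was not tested.

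**Figure D4:**
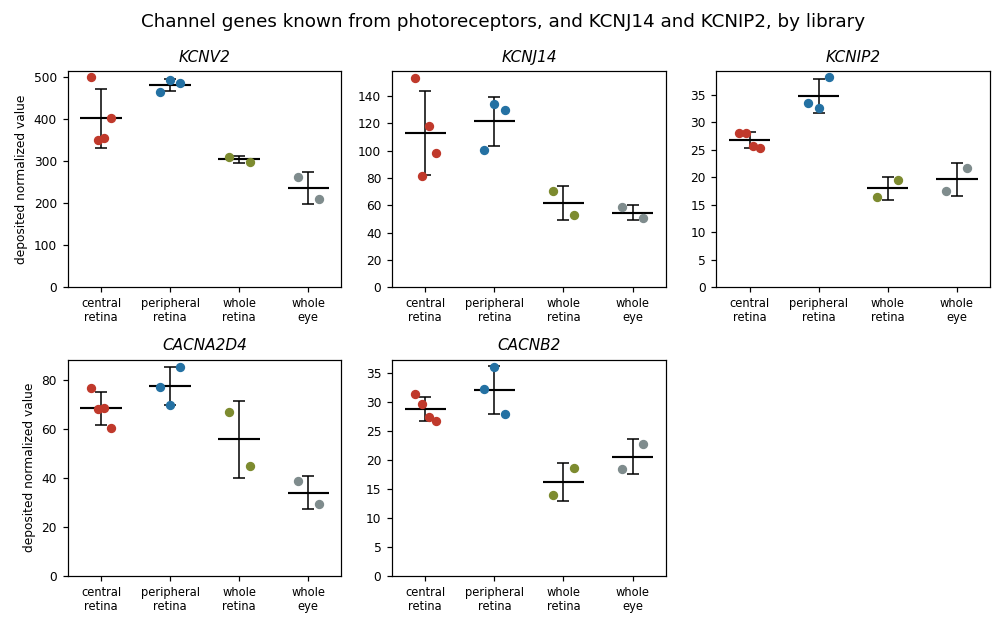
Deposited normalized value (y axis, from 0) of 5 channel genes in each library, by group; points are libraries, thick bars group means and thin bars SD. KCNIP2 lies lower in all 4 central than in all 3 peripheral libraries, while KCNV2, KCNJ14, CACNA2D4 and CACNB2 overlap between the regions.

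Genes that act with these channels were described from 3 lists, beside shares over all tested genes of 12.5% higher and 8.76% lower in central retina. Of 25 scaffold and partner genes in the tables, 12 were higher and 1 (DLG1) lower in central retina, with a median log2 difference of 0.43. The higher ones included LGI3, a secreted ligand (59.7 ± 14.4, SD, n = 4, against 13.1 ± 3.12, n = 3, log2 2.10), its receptors ADAM23 (log2 1.63) and ADAM22 (log2 1.06), and CNTNAP1 (log2 1.21) and CNTN2 (log2 0.91), which organize axonal channel domains. ANK3, the anchor of sodium channels at the axon initial segment, did not pass (15.2 ± 0.779 against 12.9 ± 2.82). Nor did others of the list, among them CNTN1 (log2 0.386), CNTNAP2 (log2 0.209), ANK2 (log2 0.432) and LGI1 (log2 0.14). Of 6 sodium-potassium pump genes, 1 (ATP1B1, log2 1.18) was higher and 2 were lower, among them FXYD6 (log2 -1.11). Other channels of retina ran the opposite way, with 1 of 13 higher (PANX1) and 5 lower (CNGA1, ANO2, CLIC4, PKD2 and TRPM3) and a median log2 difference of -0.44. CNGA1, the rod photoreceptor's cyclic nucleotide-gated channel, is also 1 of the 8 rod markers. The ganglion cell markers, 6 of 6 of them higher in central retina with a median log2 difference of 2.19, moved in the same direction as the 29 channel genes. Their part in those differences was not tested.

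No channel gene passed the limma test between whole retina and whole eye. Of the 72 tested members 0 were called, where 2.27% of all genes were (0.168% higher and 2.1% lower in whole retina), and the median log2 difference, whole retina minus whole eye, was 0.05 over the members and -0.01 over all genes. At an unadjusted p under 0.05, 2 of the 72 members were higher and 3 lower in whole retina, no larger a share than the 596 and 669 of all 11933 genes. CACNA2D4 stood at 67.1 and 44.9 in whole retina and 38.9 and 29.4 in whole eye (log2 0.68, limma adjusted p = 0.179), and SCN3B at 20.6 and 30.2 against 20.1 and 13.7 (log2 0.56, limma adjusted p = 0.341). CACNG6, a gamma subunit of muscle, stood at 0.13 and 0 against 1.70 and 0.43 (log2 -0.89, limma adjusted p = 0.105). The CACNG6 mean reached 1 only in whole eye (1.065), so the filter let this gene in through the group where it is high. KCNJ6 stood at 0.78 and 0.92 against 1.31 and 1.95 (log2 -0.50, limma adjusted p = 0.299) and KCNH8 at 4.34 and 1.75 against 7.37 and 6.42 (log2 -1.04, limma adjusted p = 0.398). With 1 library left out, CACNA2D4 passed without whole retina replicate 2 (0.0179), CACNG6 without whole eye replicate 2 (0.000107), and KCNMB1 without whole eye replicate 1 (0.0488). Skeletal muscle markers, 3 of 8 in the tables and all 3 lower in whole retina, summed to 58.0 and 13.6 in the whole eye libraries, the order in which CACNG6 stood there, and to 0.70 and 0.91 in whole retina. Their part in the CACNG6 values was not tested.

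Levels in the 4 whole-tissue libraries, set beside the 7 regional ones without a test, split the channel genes into a small group far higher in whole tissue and a larger group higher in the regions. In 6 of the 72 tested members (8.33%) every whole retina and whole eye library lay above every regional one, where 24.7% of all tested genes did. In 26 (36.1%) every regional library lay above, where 10.2% of all tested genes did. Among the 6, KCNMB1, SCN7A, KCNK13 and KCNS3 reached a mean of 1 only in whole tissue, so the filter let them in through the groups where they are high. Over all 86 members, tested or not, the counts were 9 (10.5%) and 26 (30.2%). The matching shares over all 12995 genes were not taken, so these 2 counts have no background beside them. KCNMB1 stood at 22.2 and 33.4 in whole retina and 30.8 and 13.0 in whole eye, against 0.19 to 0.39 in the regions, a mean 83.3 times higher. KCNJ8 stood at 46.4, 66.5, 58.0 and 32.0 in those 4 libraries against 0.72 to 2.77, a mean 29.4 times higher. These 2 genes are known from smooth muscle and pericytes, and the summed smooth muscle markers had the same order over the 4 libraries, highest in whole retina replicate 2 (1417) and lowest in whole eye replicate 2 (592). Vascular markers, 5 of 6, summed to 174 to 243 in the whole-tissue and 23.4 to 37.8 in the regional libraries. The part of such cells was not tested.

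The other 4 genes of this kind were SCN7A (13.7 times), KCNE4 (5.63 times), KCNK13, a leak channel known from microglia (4.93 times), and KCNS3, a modulatory pore subunit (4.76 times). KCNE4 was ordered central, peripheral, whole eye, whole retina, at means of 1.05, 2.43, 8.71 and 9.74, and the nearest libraries of the last 2 groups stood at 8.83 and 8.91. Among the 26 genes higher in the regions, HCN4 had the highest ratio, 5.30 times, and the list held pores (KCNA1, KCNA6, KCNB2, KCNC1, KCNC4, KCND3, KCNG4, KCNH7, KCNQ3, KCNS2, KCNV2, CACNA1A), partners (KCNAB3, KCNIP2, KCNIP3, CACNA2D2, CACNB1, CACNB2, CACNG3), inward rectifiers and leak channels (KCNJ2, KCNJ9, KCNJ14, KCNK4), and KCNMA1 and HCN3. Whole retina did not lie between the regions for most of the 29 genes higher in central retina. Its mean was below the central mean in 28 of them, and below the peripheral mean as well in 24. The 29 were picked for high central values, so a whole retina mean below the central one is partly built in. Shares over all genes were not taken for these counts, which therefore do not set channel genes apart.

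**Figure D5:**
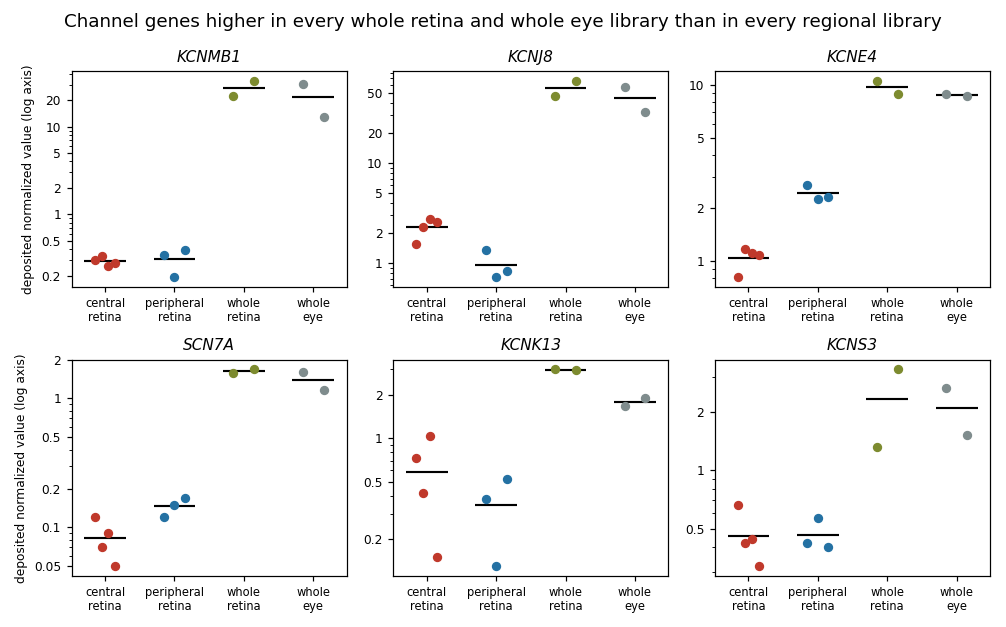
Deposited normalized value on a log y axis of the 6 tested channel genes whose 4 whole retina and whole eye libraries all lie above the 7 regional libraries, by group along the x axis; points are libraries and bars group means. KCNMB1 lies at or below 0.39 in the regions and at or above 13.0 in whole tissue.

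The 14 remaining members had no group mean of 1 or more and were not tested. They included CLCN1, CLCN5, CACNA1S, SCN4A, KCNE1L, KCNF1, KCNG1, KCNH1, KCNJ1, KCNJ15, KCNK5, KCNMB2 and KCNS1, and none exceeded 1.06 in any library. SCN4A, CACNA1S and CLCN1 are the channels of skeletal muscle excitation. Of the tested pores not named above, KCND2, KCNH6 and KCNH8 overlapped between the regions and did not pass, and KCNH6 spread widely, from 10.7 to 21.8 in central and 7.48 to 19.7 in peripheral libraries. No entry under the names SCN4B, KCNC2, KCNK2, KCNT1, CACNG1 or CLCN3 was found among the genes kept, so they could not be analysed here.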

How the data were processed

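The values are a normalized signal that the authors deposited as 1 table per library, as the headers call it; the kind of normalization is not given in the sources used here. GSNAP, an aligner, and HTSeq, a read counter, stand in the submitters' processing notes without version. Genome build and annotation are likewise not given, so no coordinates or sequences are printed. Of 15 sample records, 11 have a table and 4 were not analysed here. Tables hold 13083 entries, from which 27 marked ND or blank and 61 exact duplicates were dropped. Names of 84 of the 86 members match symbols of a current RefSeq annotation of the species.

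Groups follow the tissue in the labels. limma 3.58.1 (R 4.3.3), tested on simulated data, was fitted to log2(value + 1) over 11 libraries in 4 groups that share 1 variance per gene with a trend. Genes were tested where any group's mean reached 1, 2-sided, with Benjamini-Hochberg adjustment over 11933 genes and a threshold of 0.05. The central and peripheral regions were set beside whole tissue without a test. No member's value is kept at 4 or more decimals, so the reads behind the values could not be recovered.

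The members and lists were chosen with earlier results of these data known. Members named were those called without overlap and with a mean of at least 5, up to 12 per direction, up to 3 per family by p, and a fixed set. The other members were named after their values were seen, to account for the rest; some members and other genes are not reported here. Alternatives were other pseudocounts (0.1 and 5), no filter, a minimum of 5, quantile normalization, only the 2 groups compared, a replicate block, names sharing a start left out, and each library left out.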

Additional observations from a re-analysis of the deposited data

Results flagged for a closer look

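In 3 channel genes 1 central retina library stood far from the other central ones, by the gap to its nearest neighbour relative to the range. KCNAB1 stood at 13.36 in central retina replicate 2 and at 9.20, 9.66 and 9.68 in the others. CLCN1 stood at 0.34 in central retina replicate 4 and at 0.13, 0.14 and 0.14 in the others, and CACNG6 at 0.03 in replicate 3 and at 0 in the others. The 50 members named by rule were examined in this way, of which chance flags about 5%, and the values of CLCN1 and CACNG6 are close to 0.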

How the results depend on the processing

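Of the 32 members called between central and peripheral retina, all 32 were called with a pseudocount of 0.1 and with only the 2 groups compared, 31 with a pseudocount of 5 (KCNJ8 lost), 30 without a filter (CLCN7 and KCNJ8 lost), 29 after quantile normalization (CLCN7, KCNJ3 and KCNMA1 lost), and all of those still tested with a minimum of 5 (27) or without names that share a start (29). Without a filter, KCNE1L passed as lower (limma adjusted p = 0.0026) and KCNH1 as higher (0.0291) in central retina, and KCNJ15 as lower in whole retina than in whole eye (0.00108), the 1 member so called. With 1 library left out, 20 to 30 members were called higher and 1 to 3 lower in central retina, and 0 to 1 higher and 0 to 1 lower in whole retina; there the lone sample is assumed to vary like the other groups. Over all genes, 2538 were called between the regions, but 1327 without peripheral retina replicate 2 and 1647 without central retina replicate 4; between whole retina and whole eye 271 were called, 745 without whole retina replicate 2, 170 with only these 2 groups and 143 with a minimum of 5, which tests fewer genes. With the replicate number as a block, 25 members were higher and 1 (KCNE4) lower in central retina, and the calls lost included KCNA1, KCNIP2, KCNJ12, KCNJ3 and KCNJ8. Deviations of same-numbered central and peripheral libraries correlated at -0.138, -0.061 and 0.357. Central retina replicate 1 stood at 0.363 with peripheral retina replicate 2, and central retina replicate 2 at 0.347 with peripheral retina replicate 1. A pairing across numbers was not fitted, and these few values cannot decide whether regional samples shared animals. Central retina replicate 4 has no peripheral library of its number. For whole retina and whole eye both same-numbered correlations were 0.19. They are 1 value, since 2 libraries deviate from their mean in mirror image. Of the 50 members named by rule, those whose uncalled regional log2 difference changed sign with 1 library left out were CLCN2 (-0.225 to 0.043), KCNMB1 (-0.079 to 0.033, and 0.07 after quantile normalization), KCNA4 (-0.019 to 0.111) and KCNH8 (-0.462 to 0.017). The cause was not tested, and sign changes of the other members were not counted. Depth is unknown and limits what can be said of members near 0.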
